A study of Mus musculus with 24 samples.

Results

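The 6 genes described here are Slc29a3, Cnksr3, Pcp4l1, Ssbp2, Nt5e and C2cd4a, out of 24340 to 24557 entries in each of 4 expression tables of cultured mouse leukemia cells. They were chosen from readouts of these same tables, because their RNA fell when a leukemia fusion gene was switched off, and all 6 were found by symbol in all 4 tables. Their falls with the fusions are therefore the reason for the choice and are given as a description, with no test. The stated reason for the choice is the fall with the fusions, not the Jak1 experiment, and there the genes were tested. Earlier results of these data were known when the genes were chosen, so that test is not fully independent. The working name of the set, genes lost with every fusion, held in the authors' deposited table of gene lists for 5 of the 6. That table lists all 6 among 359 genes down without CALM-AF10, but C2cd4a is missing from its 966 genes down without MLL-AF10, its 887 down without MLL-AF9 and its 25 common to all 3.

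RNA sequencing covered 24 libraries in 8 groups of 3. CALM-AF10, MLL-AF10 and MLL-AF9 are chimeric oncoproteins of acute leukemia. Per the labels, all cells were leukemia cells from C57BL/6 bone marrow, grown with serum, SCF, IL3 and IL6. An inducible fusion in 3 models was compared between DMSO, the vehicle, and doxycycline (DOX), and the genotype is labelled wild type. For CALM-AF10 the table names its columns on and off, and no source used here ties these to DMSO and DOX. The fourth experiment set Jak1 null against Jak1 floxed cells, both with CALM-AF10. The gene was removed by Cre-ER under 4-hydroxytamoxifen (4-OHT), per the labels. Not given in the sources used here are doses, times, the promoter driving each fusion and which Jak1 exons were removed. Input was polyA RNA, except for MLL-AF9, which is labelled total RNA. Nothing in the labels says that libraries of a group were separate cultures, so the spread behind each p-value is that of these libraries and may be technical.

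The members have little in common in their textbook roles. Slc29a3 encodes ENT3, a nucleoside transporter of lysosomal membranes, and Nt5e encodes CD73, the cell surface enzyme that turns AMP into adenosine. Ssbp2 binds the adaptor LDB1 and is known for protecting LDB1 complexes, which join LIM-only proteins such as LMO2 to DNA-binding factors in blood progenitors. Cnksr3 is a scaffold of the connector enhancer of KSR family, known mainly from sodium transport in the kidney. Pcp4l1 is a small protein with an IQ motif, related to the calmodulin-binding PCP4 of Purkinje cells, and C2cd4a is a small nuclear protein, described as induced by inflammatory cytokines in human endothelial cells. JAK1 is the tyrosine kinase that passes signals from cytokine receptors, the IL6 receptor among them, to STAT factors.

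Total counts ran from 12130633 to 40187404 per library for CALM-AF10, with the third off library lowest, and from 11743388 to 13764632 for Jak1. For the other tables the depth is unknown. The targeted gene fell only in part in the Jak1 experiment. Jak1 itself was at 196, 195 and 198 CPM (read counts scaled to the library's total) in the floxed and 166, 153 and 154 CPM in the null libraries, a log2 change of −0.32 (edgeR adjusted p = 2.002e-08). Reads outside the deleted exons would not report the deletion. Whether the deletion was complete in all cells was not tested. T cell markers were at or near 0 in all 4 tables. Of the 16 markers of maturing neutrophils and monocytes, a part moved with every fusion. Of those tested, 7 of 14 rose and 1 fell in CALM-AF10, 10 of 13 rose in MLL-AF10 and 14 of 16 rose in MLL-AF9. Their summed level was 3011 to 3106 CPM with CALM-AF10 on and 3762 to 4315 CPM with it off. In MLL-AF9 the sum was 13930 to 17230 FPKM in DMSO and 48080 to 62130 FPKM in DOX. The part of this shift in the members' values was not tested. In such bulk samples, fewer cells of a type and less RNA per cell cannot be told apart.

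In none of the 3 fusion tables did any of the 6 genes have a library of the off or DOX group as high as the lowest library of the on or DMSO group. The choice of members fixed this. Over all genes tested, 15.5% had lower groups without overlap in CALM-AF10, 17% in MLL-AF10 and 16.8% in MLL-AF9. The share called lower at an adjusted p under 0.05 was 3.11% of 12366 genes in CALM-AF10, 9.17% of 10553 in MLL-AF10 and 4.54% of 10881 in MLL-AF9. The share called higher was 2.13%, 10.6% and 7.23%, in the same order. Tables were normalized separately, and the log2 values of MLL-AF10 are probably shrunken towards 0, so sizes are not compared between tables.

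**Figure D1:**
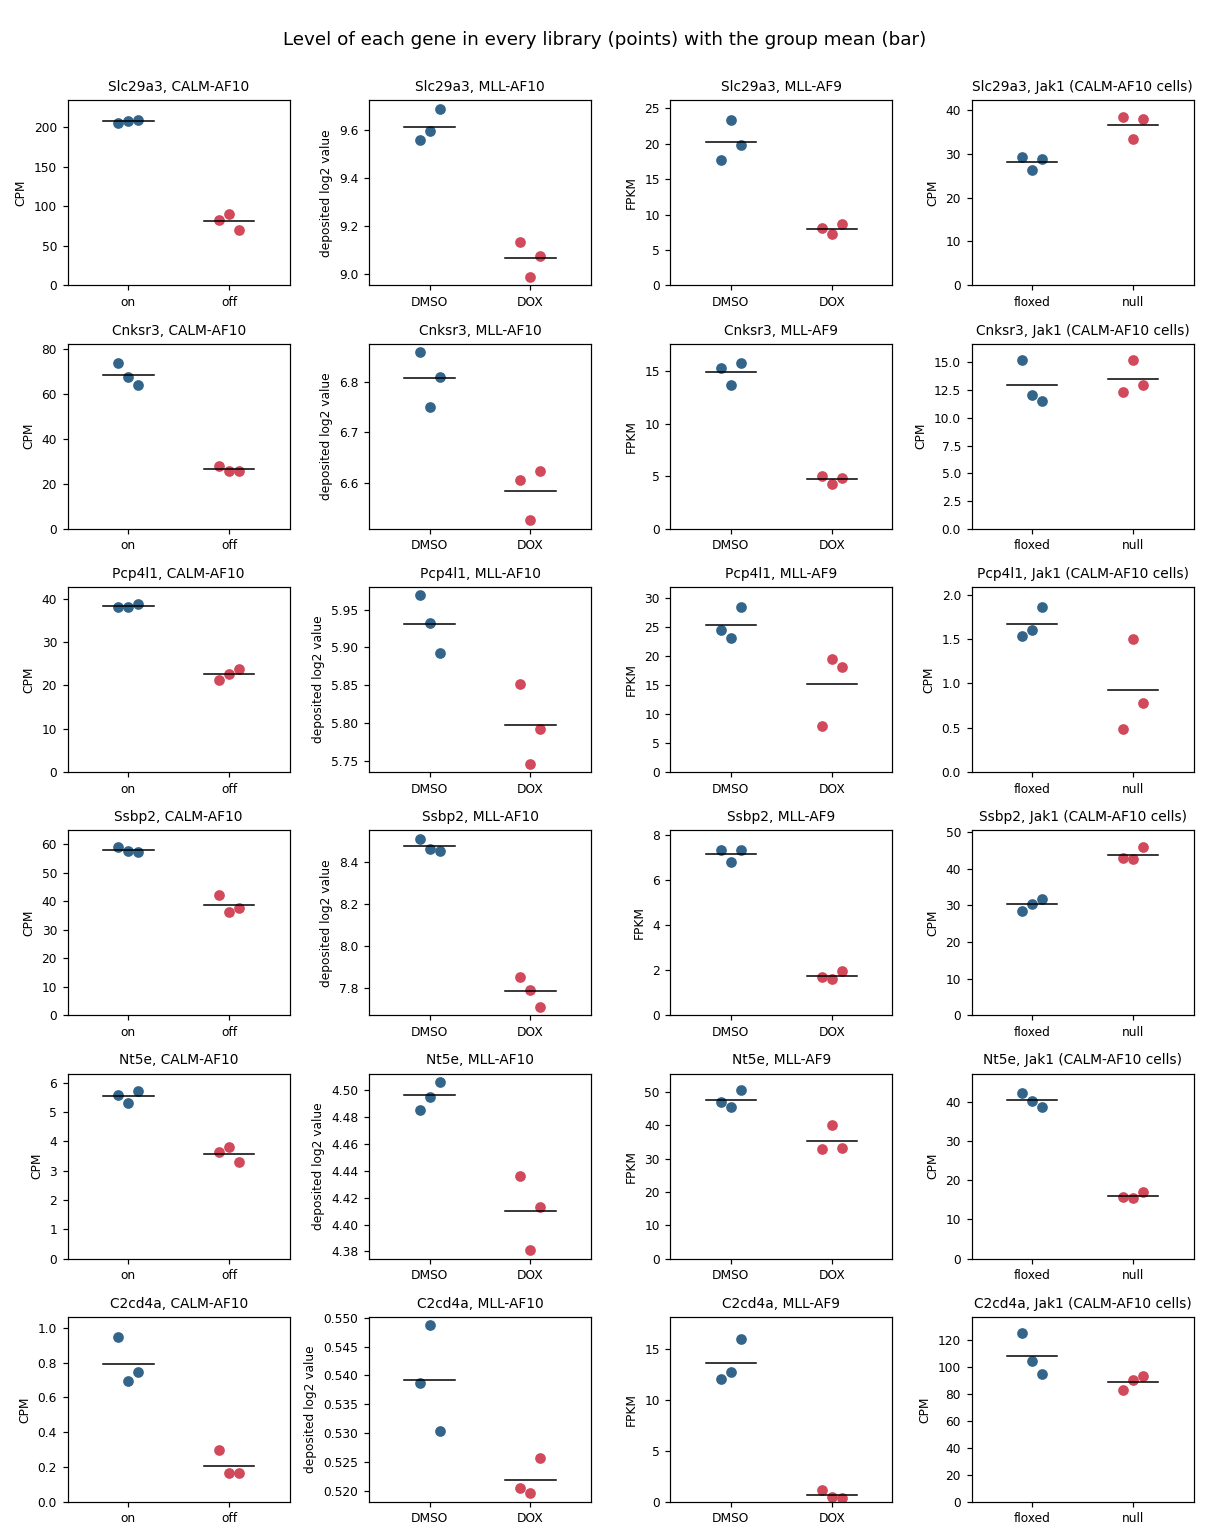
Level of the 6 genes in every library, by gene (rows) and experiment (columns), in CPM, deposited log2 values or FPKM; points are libraries, bars group means, and the log2 axes do not start at 0. In the 3 fusion columns every red point lies below every blue one, while in the Jak1 column Slc29a3 and Ssbp2 lie higher in the null libraries and Nt5e lies lower.

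Slc29a3, the nucleoside transporter, was at 204.5, 207 and 209 CPM in the CALM-AF10 on libraries and at 82.8, 89.7 and 69.7 CPM in the off libraries. The groups lay far apart, with a ratio of means of 2.56 and a log2 change of −1.35 (SE 0.076). In MLL-AF10 its deposited log2 value was 9.56, 9.59 and 9.69 in DMSO and 9.13, 8.99 and 9.08 in DOX, a change of −0.55 (SE 0.042). In MLL-AF9 it was at 17.7, 23.4 and 19.8 FPKM in DMSO and 8.04, 7.20 and 8.70 FPKM in DOX. On the log2(FPKM + 1) scale, used for all MLL-AF9 changes here, that was −1.24 (SE 0.134). In each of these tables fewer than 1% of genes tested fell more.

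Cnksr3, the scaffold, was at 73.7, 67.3 and 63.8 CPM with CALM-AF10 on and 27.9, 25.8 and 25.7 CPM with it off, a log2 change of −1.36 (SE 0.066). In MLL-AF10 its log2 value was 6.86, 6.75 and 6.81 in DMSO and 6.61, 6.53 and 6.62 in DOX, a change of −0.22 (SE 0.039). The MLL-AF9 libraries were at 15.3, 13.7 and 15.7 FPKM in DMSO and 4.99, 4.29 and 4.87 FPKM in DOX, a change of −1.48 (SE 0.122). Its libraries were tight within each group, and the ratio of means was 2.58 in CALM-AF10 and 3.16 in MLL-AF9.

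Ssbp2, the LDB1 partner, ranked among the steepest falls in the MLL models. In MLL-AF10 its log2 value was 8.51, 8.46 and 8.45 in DMSO and 7.85, 7.79 and 7.71 in DOX, a change of −0.69 (SE 0.039), and 0.152% of genes tested fell more. The MLL-AF9 libraries stood at 7.30, 6.80 and 7.31 FPKM in DMSO and 1.70, 1.62 and 1.958 FPKM in DOX, a ratio of means of 4.06 and a log2 change of −1.56 (SE 0.154). In CALM-AF10 it was at 58.9, 57.8 and 57.2 CPM on and 42.2, 36.4 and 37.6 CPM off, a log2 change of −0.58 (SE 0.061). There 3.29% of genes tested fell more.

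Pcp4l1, the IQ motif protein, was at 38.0, 38.1 and 38.7 CPM with CALM-AF10 on and at 21.3, 22.6 and 23.9 CPM with it off, a log2 change of −0.77 (SE 0.058). In MLL-AF10 its log2 value was 5.97, 5.93 and 5.89 in DMSO and 5.85, 5.75 and 5.79 in DOX, a change of −0.14 (SE 0.035) in which the nearest libraries lay close together. For MLL-AF9 the levels were 24.6, 23.2 and 28.6 FPKM in DMSO and 7.87, 19.6 and 18.1 FPKM in DOX. The first DOX library lay far below the others, and the change of −0.80 (SE 0.302) was −0.41 without it.

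Nt5e, the adenosine-forming enzyme, was at 5.60, 5.30 and 5.73 CPM with CALM-AF10 on and 3.63, 3.82 and 3.30 CPM with it off, a log2 change of −0.61 (SE 0.113) from 40 to 231 reads per library. For MLL-AF9 the libraries read 47.0, 45.5 and 50.5 FPKM in DMSO and 32.8, 40.0 and 33.2 FPKM in DOX, a change of −0.43 (SE 0.1). In MLL-AF10 its log2 value was 4.49, 4.50 and 4.51 in DMSO and 4.44, 4.38 and 4.41 in DOX. That change of −0.086 (SE 0.022) is the smallest of the tested members in that table, and 12.5% of genes tested fell more.

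C2cd4a went from low to lower in CALM-AF10 and from clear to nearly off in MLL-AF9. In CALM-AF10 it had 26, 17 and 30 reads in the on libraries and 11, 5 and 2 in the off libraries, or 0.945, 0.693 and 0.744 CPM against 0.296, 0.163 and 0.165 CPM. The log2 change of −1.80 (SE 0.338) thus rests on few reads, and ran from −2.24 without off replicate 1 to −1.585 without off replicate 2. In the MLL-AF9 table it was at 12.02, 12.7 and 16.0 FPKM in DMSO and at 1.18, 0.432 and 0.344 FPKM in DOX. The ratio of means was 20.9 and the change −3.17 (SE 0.233), and 0.0919% of genes tested fell more. The authors' deposited list of genes down in MLL-AF9 does not hold C2cd4a. In MLL-AF10 its log2 value was 0.539, 0.549 and 0.530 in DMSO and 0.521, 0.520 and 0.526 in DOX, below the filter, and it was not tested. Its fall was thus seen in the CALM-AF10 and MLL-AF9 tables.

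Levels can be compared between genes only in MLL-AF9, where they are per length. In DMSO the order of mean levels was Nt5e at 47.7 ± 2.55 FPKM (SD, n = 3), Pcp4l1 at 25.5 ± 2.78, Slc29a3 at 20.3 ± 2.89, Cnksr3 at 14.9 ± 1.10, C2cd4a at 13.6 ± 2.14 and Ssbp2 at 7.14 ± 0.294 FPKM. The libraries of Pcp4l1 and Slc29a3 overlapped, as did those of Cnksr3 and C2cd4a. The other neighbours in that order did not overlap. In DOX the order changed at its lower end, where C2cd4a, at 0.650 ± 0.456 FPKM, fell below Ssbp2, at 1.76 ± 0.178 FPKM.

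Promoters of the 6 genes are shown where a motif of MEIS factors was found, because the MEIS gene Meis1 fell with all 3 fusions as well. Whether MEIS factors bind these sites or have a part in the members' falls was not tested. Meis1 changed by −0.59 on the log2 scale in CALM-AF10, −0.59 in MLL-AF10 and −1.73 in MLL-AF9 (adjusted p = 0.001591, 4.634e-08 and 0.004255 by edgeR, limma and limma). The 250 bases before the annotated start were read from RefSeq (GRCm38.p6), with 1 promoter matched for each of the 6 genes. The letters TGACAG, on either strand, occurred in 3 of the 6 and in 15.8% of 32544 mouse promoters. They are in capitals below, in the reading direction of the gene, and begin 62 bases before the start of Pcp4l1, 73 before that of Ssbp2 and 40 before that of C2cd4a; CTGTCA is the motif on the opposite strand. The windows are chr1:171196269-171196518 (minus strand), chr13:91460847-91461096 (plus strand) and chr9:67832331-67832580 (minus strand).
Pcp4l1: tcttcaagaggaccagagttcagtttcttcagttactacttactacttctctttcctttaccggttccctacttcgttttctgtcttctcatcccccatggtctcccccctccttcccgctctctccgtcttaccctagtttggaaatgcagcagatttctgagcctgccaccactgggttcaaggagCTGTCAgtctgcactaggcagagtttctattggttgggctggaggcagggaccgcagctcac
Ssbp2: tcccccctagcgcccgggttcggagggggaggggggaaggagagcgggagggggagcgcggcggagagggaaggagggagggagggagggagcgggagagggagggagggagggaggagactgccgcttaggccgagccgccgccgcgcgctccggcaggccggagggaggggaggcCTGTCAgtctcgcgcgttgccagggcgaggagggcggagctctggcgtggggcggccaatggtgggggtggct
C2cd4a: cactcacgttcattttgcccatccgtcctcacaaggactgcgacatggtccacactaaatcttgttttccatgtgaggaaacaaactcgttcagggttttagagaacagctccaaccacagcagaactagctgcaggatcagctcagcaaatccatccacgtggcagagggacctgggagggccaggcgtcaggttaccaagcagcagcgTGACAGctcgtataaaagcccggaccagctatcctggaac

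The windows differ in composition. The window of Ssbp2 had a GC content of 76% and that of Nt5e 72%, against 51.6% for Pcp4l1 and 52.8% for C2cd4a and a median of 52.4% over all promoters. No TGACAG was found in the windows of Slc29a3, Cnksr3 and Nt5e. None of the 6 windows held TGATTNAT, the joint HOX and PBX motif, which 2.83% of promoters hold, nor TTCNNNGAA, the STAT motif in 7.04%. The motif of GATA factors, the letters AGATAA, was in 9.97% of promoters and in none of the 6 either. The Ssbp2 window lies inside the longest annotated gene span, before a start downstream of its outermost one.

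The Jak1 experiment asks a separate question, which genes differ between Jak1 null and Jak1 floxed cells. The floxed columns are named DMSO, the vehicle, while per the labels Jak1 was removed by Cre-ER under hydroxytamoxifen. The drug, Cre activity and the loss of Jak1 therefore cannot be told apart. Which genes JAK1 regulates cannot be read from this contrast, and Jak1 loss, as used here, means null against floxed libraries. In that contrast the 6 genes did not move together. Slc29a3 and Ssbp2 rose, Nt5e, C2cd4a and Pcp4l1 fell, and Cnksr3 was not called. These 5 of 6 calls stand beside a background of 55.7% of 11607 genes called, 27.4% higher and 28.3% lower, so calls were common among all genes. Hoxa9 and Meis1, 2 homeobox genes that fell with each fusion, were not called after Jak1 loss (log2 changes −0.05 and 0.08, edgeR adjusted p = 0.2565 and 0.2056).

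Nt5e had the clearest response. It was at 42.5, 40.4 and 38.9 CPM in the floxed and 15.8, 15.6 and 16.9 CPM in the null libraries, so all null libraries lay far below all floxed ones. The log2 change was −1.33 (SE 0.071, edgeR adjusted p = 3.051e-16), with a 95% interval of −1.47 to −1.19. Of all genes tested, 3.65% fell more.

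Ssbp2 moved the other way. It was at 28.5, 30.4 and 31.8 CPM in the floxed and 43.0, 42.6 and 45.9 CPM in the null libraries, without overlap, and rose by 0.535 on the log2 scale (SE 0.06, adjusted p = 7.486e-09, edgeR). Slc29a3 rose from 29.3, 26.4 and 28.7 CPM to 38.4, 33.4 and 37.8 CPM, also without overlap, a log2 change of 0.38 (SE 0.067, edgeR adjusted p = 1.818e-05). Both genes thus fell without CALM-AF10 in one experiment and were higher in the Jak1 null libraries of another. The difference between the experiments was not tested, since their tables were normalized separately.

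C2cd4a was at 124.9, 104.6 and 95.04 CPM in the floxed and 83.0, 90.2 and 93.6 CPM in the null libraries. The nearest libraries of the groups nearly touched, and the fall was −0.28 on the log2 scale (SE 0.062, edgeR adjusted p = 0.0003375, but 0.05137 with DESeq2). Pcp4l1 was nearly silent, with 18, 22 and 22 reads in the floxed and 6, 19 and 10 in the null libraries, or 1.54, 1.61 and 1.86 CPM against 0.489, 1.495 and 0.773 CPM. Its change of −0.845 (SE 0.326, edgeR adjusted p = 0.02832) was lost with DESeq2 (adjusted p = 0.1005) and without floxed replicate 2 or 3 or null replicate 1 or 3 (0.05494, 0.08743, 0.1797 and 0.1005). Cnksr3 was at 15.2, 12.1 and 11.5 CPM in the floxed and 12.3, 15.3 and 13.0 CPM in the null libraries, which overlapped. Its log2 change was 0.07 (SE 0.111, edgeR adjusted p = 0.6067), with a 95% interval of −0.146 to 0.288.

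**Figure D2:**
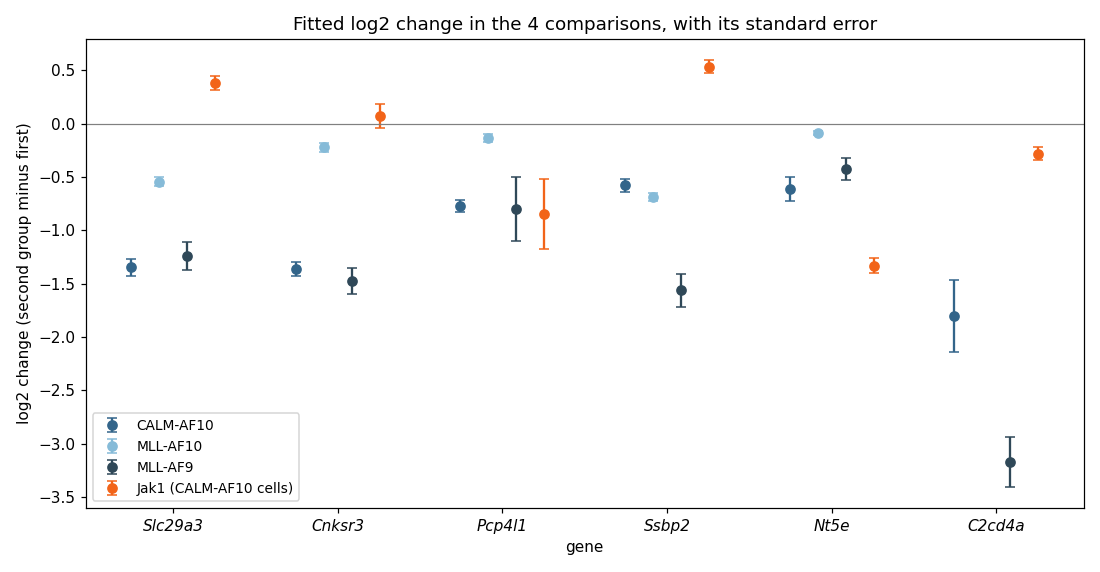
Fitted log2 change of each gene (vertical axis, second group minus first) in the 4 comparisons, with bars of 1 standard error; C2cd4a was not tested in MLL-AF10. The 3 fusion comparisons lie below 0 by the choice of genes, while the Jak1 values run from −1.33 for Nt5e to 0.535 for Ssbp2.

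Marker sums also differed between the Jak1 groups. Of the 16 maturing neutrophil and monocyte markers, 7 rose and 7 fell, and their sum was 8592 to 8824 CPM in the floxed and 7790 to 8273 CPM in the null libraries. The sum of 6 stromal markers was 9.48 to 11.03 CPM against 22.2 to 25.3 CPM, with 2 of 2 tested higher. The sum of 4 endothelial markers was 167 to 171 CPM against 251.5 to 262 CPM, with 1 of 2 tested higher and 1 lower, and Kdr and Tek were at or near 0. Epithelial markers summed to 15.5 to 20.5 CPM against 7.27 to 10.2 CPM, with 1 of 1 tested lower. The 6 general hematopoietic markers summed to 2169 to 2274 CPM against 3128 to 3330 CPM, with 3 higher and 2 lower. Their part in the members' values was not tested.

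The same genes stood at very different levels in the 2 tables of CALM-AF10 cells. C2cd4a averaged 0.794 CPM in the on libraries and 108 CPM in the floxed libraries, 136-fold apart, and Nt5e averaged 5.54 and 40.6 CPM, 7.33-fold apart. Pcp4l1 went the other way, at 38.3 CPM on and 1.67 CPM floxed, 22.9-fold apart. Slc29a3 was 7.36-fold, Cnksr3 5.28-fold and Ssbp2 1.92-fold higher in the on libraries. Both groups carry CALM-AF10, but they are different cells in separately normalized tables, so the line, the culture and the library preparation cannot be told apart and no test was made. The falls of C2cd4a and of Nt5e in the CALM-AF10 table thus started from low levels, and that of Pcp4l1 in the Jak1 table did too.

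**Figure D3:**
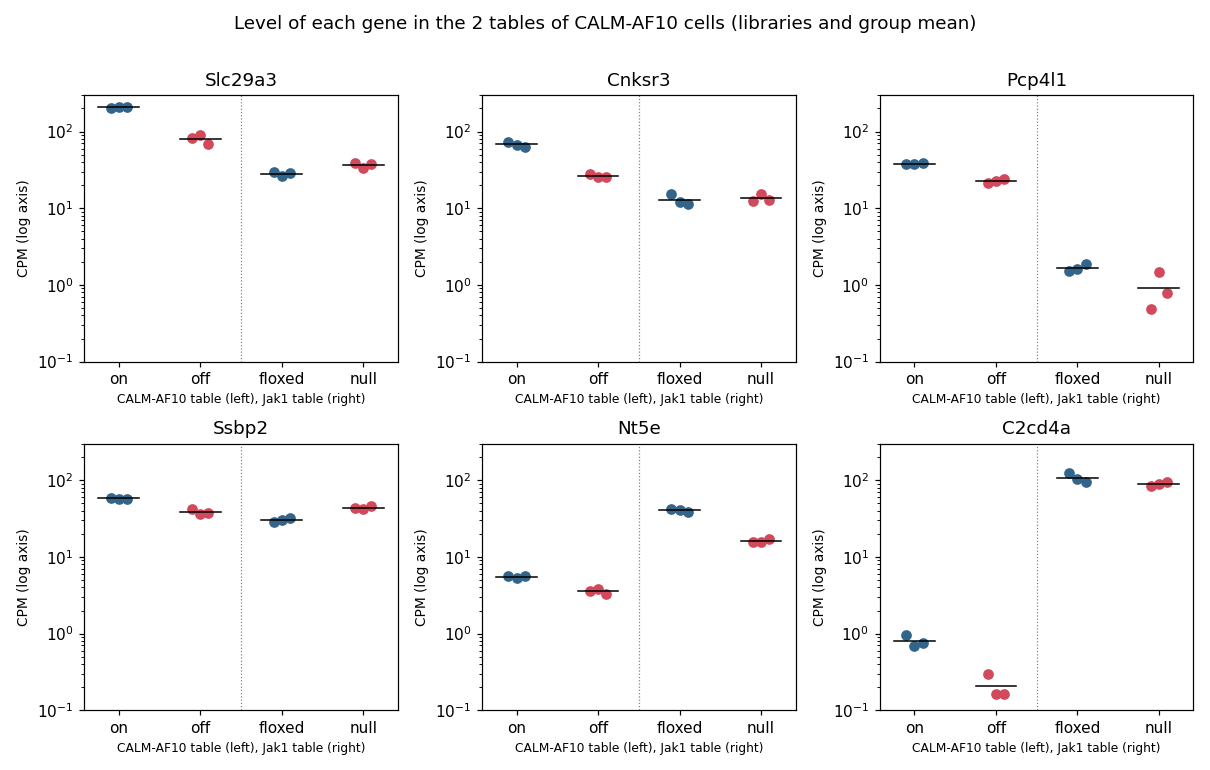
CPM of the 6 genes on a log axis in the libraries of the CALM-AF10 table (on, off) and of the Jak1 table (floxed, null); points are libraries and bars group means. C2cd4a and Nt5e lie far higher in the Jak1 table, and Pcp4l1, Slc29a3 and Cnksr3 lie higher in the CALM-AF10 table.

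Genes next to the members on the chromosome were read next, with 2 on each side of each member and positions from GRCm38.p6. Slc29a3 lies at chr10:60712072-60752849, Cnksr3 at chr10:7119061-7212237, Pcp4l1 at chr1:171173264-171196268, Ssbp2 at chr13:91460305-91706175, Nt5e at chr9:88327609-88372089 and C2cd4a at chr9:67830532-67832330. Of the 24 neighbours, 15 were tested in CALM-AF10, 14 in MLL-AF10, 14 in MLL-AF9 and 18 in Jak1. In CALM-AF10, 2 rose and 1 fell, in MLL-AF10 1 rose and 2 fell, in MLL-AF9 1 rose and 1 fell, and in Jak1 3 rose and 6 fell. Of all genes tested, 27.4% were higher and 28.3% lower in Jak1. In CALM-AF10 the shares were 2.13% higher and 3.11% lower, in MLL-AF10 10.6% and 9.17%, and in MLL-AF9 7.23% and 4.54%. The neighbours that fell in Jak1 include C2cd4b, Tln2, Vps13c and Rora, all next to C2cd4a.

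Next to Cnksr3, at 64.3 kb, lies Ipcef1, which encodes an interactor of cytohesins; in human a joint transcript of both genes is known. Ipcef1 was at 41.9, 37.6 and 36.3 CPM with CALM-AF10 on and 13.3, 14.5 and 13.5 CPM with it off, without overlap. Its log2 change of −1.48 (SE 0.075, edgeR adjusted p = 9.254e-06) stands beside −1.36 for Cnksr3. In MLL-AF10 it changed by −0.14 (limma adjusted p = 0.019), a call that was lost without DMSO replicate 1 or DOX replicate 2 or 3 and with no filter, with adjusted p up to 0.3297. In MLL-AF9 it was near the filter, at 1.46 FPKM in DMSO and 0.846 FPKM in DOX, with a change of −0.42 (limma adjusted p = 0.3616). After Jak1 loss its change was 0.41 (edgeR adjusted p = 0.0783), and it was called there with no filter, with a replicate block and without floxed replicate 2 (adjusted p down to 0.003709). Of the other neighbours of Cnksr3, Ulbp1 was called in none of the 4 comparisons, but for Jak1 without floxed replicate 3 (adjusted p = 0.02749). Lrp11 was not called in CALM-AF10, MLL-AF9 or Jak1 and was not tested in MLL-AF10.

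Near Slc29a3, the immune checkpoint gene Vsir, 282 kb away, moved against it. Vsir rose from 224 to 270.3 CPM in CALM-AF10 (log2 change 0.27, edgeR adjusted p = 0.007409, and 0.05887 without on replicate 2). It rose by 0.29 in MLL-AF10 and 0.62 in MLL-AF9 (limma adjusted p = 2.845e-05 and 0.006387), and fell by 0.28 after Jak1 loss (edgeR adjusted p = 9.203e-08). Snx14, 4.7 kb from Nt5e, was called in none of the 3 fusion tables, with log2 changes of 0.03, 0.10 and 0.34. With a replicate block its call in MLL-AF10 changed, to an adjusted p of 0.01103. Snx14 fell by 0.22 after Jak1 loss (adjusted p = 0.0001461), beside −1.33 for Nt5e. Syncrip, an RNA-binding protein gene 77.3 kb from Nt5e on the same side, was lower with it in MLL-AF10 and MLL-AF9, at log2 changes of −0.11 and −0.50 (limma adjusted p = 0.03533 and 0.01315). The first call was lost with no filter and without DMSO replicate 1 or 2 or DOX replicate 2 or 3, and the second with no filter and without DMSO replicate 2, with adjusted p up to 0.2547 and 0.05472. Syncrip was not called in CALM-AF10 (−0.05, edgeR adjusted p = 0.5344) and rose by 0.21 after Jak1 loss (edgeR adjusted p = 1.489e-06), where Nt5e fell. Near C2cd4a, its relative C2cd4b, 69.6 kb away, was too low to test in all 3 fusion tables. In the Jak1 table C2cd4b was at 3.42, 4.45 and 5.16 CPM in the floxed and 1.06, 1.02 and 1.01 CPM in the null libraries, a log2 change of −2.07 (SE 0.242, edgeR adjusted p = 1.768e-08). The next gene on that side, Tln2, a cytoskeletal talin, fell there from 13.2 to 4.66 CPM (log2 change −1.50, adjusted p = 6.452e-11). On the other side, Vps13c, 8.0 kb from C2cd4a, had a log2 change of −0.376 there (edgeR adjusted p = 6.104e-10). Rora, 821 kb away on that side, changed by −0.484 (edgeR adjusted p = 0.03933). That call was lost with DESeq2 and without floxed replicate 1 or 2 or null replicate 1 or 3, with adjusted p up to 0.2327.

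**Figure D4:**
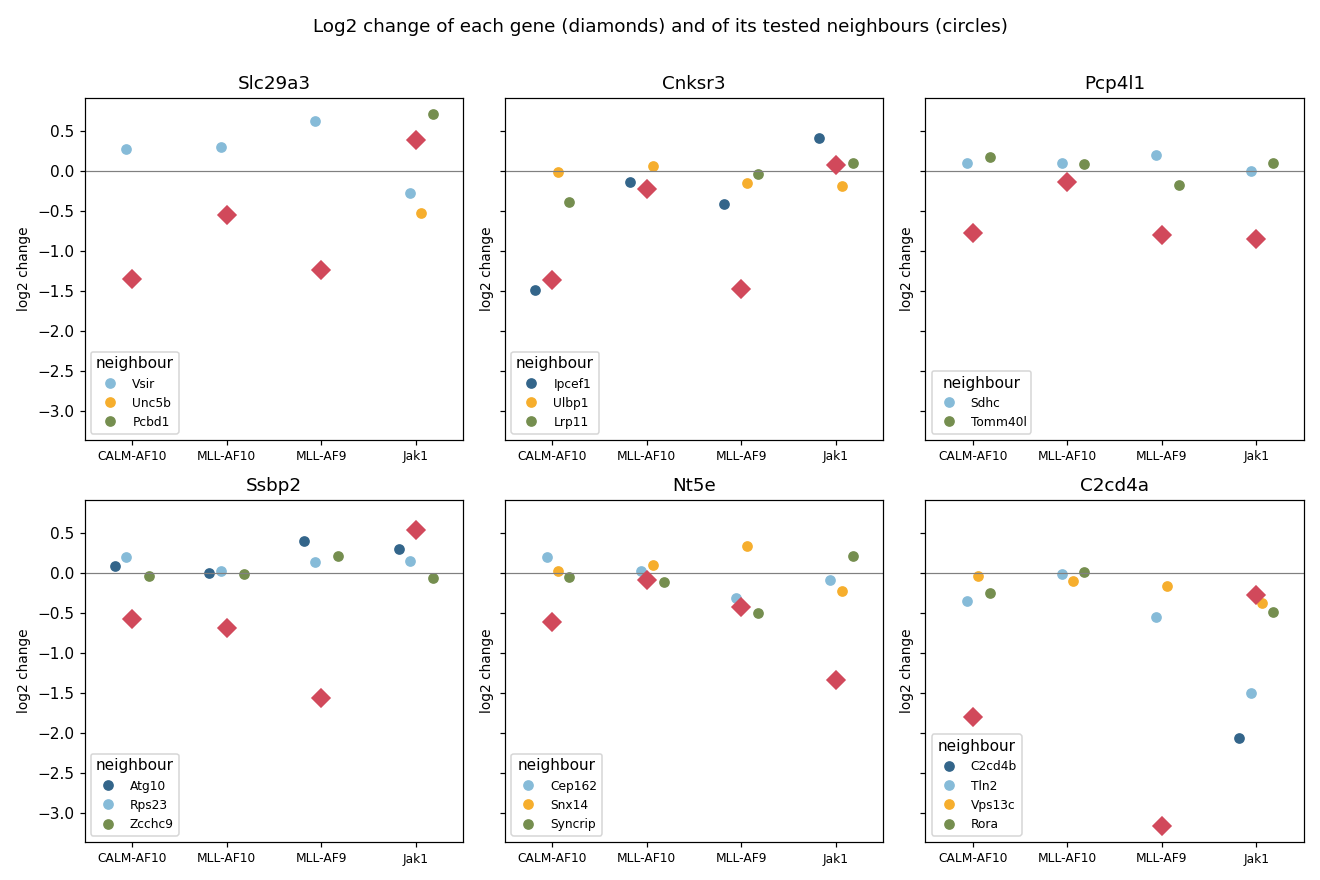
Log2 change (vertical axis) of each gene (red diamonds) and of its tested neighbours (circles) in the 4 comparisons. Ipcef1 lies beside Cnksr3 in CALM-AF10, at −1.48 and −1.36. C2cd4b, Tln2, Rora and Vps13c lie below C2cd4a in the Jak1 comparison, at −2.07, −1.50, −0.48 and −0.38.

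Partners of each member in its pathway were counted next. Of 19 tested genes of nucleoside transport and purine salvage, the surroundings of Slc29a3, 1 rose in CALM-AF10 and 4 rose in MLL-AF10. In MLL-AF9, 2 rose and 1 fell. The shares of all genes tested that rose were 2.13%, 10.6% and 7.23%, in the same order, and 4.54% fell in MLL-AF9. Median log2 changes of the 19 were 0.07, 0.05 and −0.02, near the medians of all genes tested of −0.003, 0.001 and −0.016. Xdh, the xanthine oxidoreductase of purine breakdown, rose in all 3, by 0.43, 0.36 and 0.81 (adjusted p = 0.008841 by edgeR, 8.025e-06 and 0.005925 by limma, and 0.05728 in CALM-AF10 without on replicate 2). After Jak1 loss, 4 of 19 rose and 9 fell, where 27.4% of all genes tested rose and 28.3% fell. Among them Ampd2, an AMP deaminase, rose from 260.2 to 389 CPM, while Xdh fell from 163.5 to 105 CPM, Ampd3 from 49.1 to 29.2 CPM and Aprt from 325.5 to 240 CPM (edgeR adjusted p = 3.652e-16, 1.767e-14, 1.159e-12 and 2.12e-12).

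Of 15 genes of lysosomal nucleic acid breakdown and sensing, 13 were tested in each fusion table. In CALM-AF10 1 rose, where 2.13% of all genes tested did. In MLL-AF10 4 rose and 1 fell, against 10.6% and 9.17%, and in MLL-AF9 7 rose, against 7.23%. That last count was 4 to 5 without any 1 library, 4 with a replicate block and 3 with no filter. Tlr8, a lysosomal RNA sensor, rose by 0.35 in MLL-AF10 and 1.34 in MLL-AF9 (limma adjusted p = 6.545e-06 and 0.01161). After Jak1 loss, 6 of 12 rose and 3 fell, against 27.4% and 28.3% of all genes tested, with a median of 0.20. Tlr7, another RNA sensor, rose there from 6.84 to 12.1 CPM (edgeR adjusted p = 3.668e-06), in the same direction as Slc29a3. Pld4 also rose, from 140 to 172 CPM, while Sidt2 fell from 333 to 298 CPM (edgeR adjusted p = 3.917e-07 and 9.63e-05).

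Of 15 tested genes of extracellular adenosine, the surroundings of Nt5e, 8 fell and 3 rose after Jak1 loss, against 28.3% and 27.4% of all genes tested. Their median log2 change was −0.24, against 0.008 for all genes. Cd38, which consumes NAD outside the cell, fell from 15.1 to 2.90 CPM, and the adenosine receptor Adora2b from 14.6 to 5.09 CPM. Dpp4, which binds adenosine deaminase in human, fell from 9.74 to 2.39 CPM, and the ATP-gated channel P2rx1 from 26.3 to 15.5 CPM. The log2 changes were −2.37, −1.52, −2.01 and −0.76 (edgeR adjusted p = 1.326e-15, 9.25e-12, 2.344e-11 and 1.662e-09). In CALM-AF10 1 of 17 rose and 2 fell, against 2.13% and 3.11% of all genes tested. In MLL-AF10 2 of 13 rose and 1 fell, against 10.6% and 9.17%. In MLL-AF9 5 of 12 rose, against 7.23%, with a median log2 change of 0.466 against −0.016 for all genes. There Cd38 rose from 3.49 to 13.3 FPKM and Adora2b from 7.17 to 15.1 FPKM (limma adjusted p = 0.007675 and 0.01169), while Nt5e was lower. With no filter on low values these calls and that of Tlr8 in MLL-AF9 were lost (adjusted p = 0.08315, 0.08945 and 0.08843).

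For the LDB1 complex, the surroundings of Ssbp2, MLL-AF10 had 7 lower and 1 higher of 16 tested, against 9.17% and 10.6% of all genes. With no filter on low values 2 of these genes were called. Tcf4, a basic helix-loop-helix factor, fell by 0.74, and the adaptor gene Lmo2 fell by 0.30 (limma adjusted p = 1.08e-07 and 1.304e-05). Lmo2 also fell in CALM-AF10, from 306 to 253 CPM (log2 change −0.28, edgeR adjusted p = 0.01684), a call lost without any 1 of the on libraries or off replicate 2, with adjusted p up to 0.08344. In MLL-AF9 it fell from 296 to 182 FPKM (−0.70, limma adjusted p = 0.001263). It was the 1 gene of 14 tested that was called there, where 4.54% of all genes fell. In CALM-AF10 1 of 16 rose and 1 fell, against 2.13% and 3.11% of all genes. After Jak1 loss, 5 of 14 rose and 2 fell, against 27.4% and 28.3% of all genes. Runx1, Cbfa2t3 and Tcf4, transcription regulators of blood progenitors, rose by 0.555, 0.625 and 0.25 (edgeR adjusted p = 3.767e-14, 8.834e-13 and 8.498e-08), beside the rise of Ssbp2, whereas Lmo2 was not called (−0.07, adjusted p = 0.1295).

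For the scaffolds of the ERK cascade, the surroundings of Cnksr3, Jak1 loss gave 11 lower and 2 higher of 18 tested, against 28.3% and 27.4% of all genes, with a median of −0.15. The kinase gene Map2k1 fell from 149 to 94.9 CPM, and Ralb, a small GTPase, from 99.2 to 69.5 CPM (edgeR adjusted p = 1.629e-13 and 8.174e-11), while Cnksr3 itself was not called. With the fusions, 1 of 19 rose and 1 fell in CALM-AF10, against 2.13% and 3.11% of all genes tested. In MLL-AF10 3 of 18 rose and 1 fell, against 10.6% and 9.17%, and in MLL-AF9 2 of 18 rose, against 7.23%. In CALM-AF10 and MLL-AF10 the 1 that fell was Ipcef1, the neighbour of Cnksr3 already given above. For calmodulin and the IQ peptides, the surroundings of Pcp4l1, edgeR called 0 of 15 in CALM-AF10, where 3 had an unadjusted p under 0.05 and DESeq2 called 3. In MLL-AF10, 2 of 15 rose and 4 fell, against 10.6% and 9.17% of all genes tested. In MLL-AF9 2 of 12 fell, against 4.54%. After Jak1 loss, 5 of 16 rose and 6 fell, where 27.4% of all genes tested rose and 28.3% fell. Nrgn, a calmodulin-binding IQ protein like Pcp4l1, rose from 45.5 to 101 CPM, while the kinase genes Camkk1 and Camk2d fell from 14.3 to 3.95 CPM and from 7.62 to 2.87 CPM (edgeR adjusted p = 5.455e-18, 2.69e-13 and 2.38e-08). Of the other C2CD4 genes, C2cd4b was the 1 tested, in the Jak1 table.

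Leaving out 1 library at a time changed the list counts in the fusion tables. In CALM-AF10 they ran from 0 to 2 for purine salvage, 0 to 3 for LDB1 and for calmodulin, 1 to 3 for adenosine, 1 to 2 for the scaffolds and 0 to 1 for lysosomal genes. The lower counts came without on replicate 1, 2 or 3 or off replicate 1 or 2, and the higher ones without off replicate 3. In MLL-AF10 the adenosine count reached 5 without DMSO replicate 1, and the LDB1 count was 4 without DOX replicate 2. With a replicate block, the MLL-AF10 counts for adenosine and for the scaffolds were 7 and 7, against 3 and 4. In MLL-AF9 the scaffold count was 0 without DMSO replicate 1 or 2. In the Jak1 table all list counts stayed within 2 of those given.

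Genes whose levels followed each member most closely were found from the correlation within each experiment, averaged over 4 experiments and 24 libraries (9516 genes compared; for C2cd4a, 3 experiments, 18 libraries and 10017 genes). Much of this likeness comes from the 2 groups of each experiment, and nothing in the labels says that libraries of a group were separate cultures. Slc29a3 was most like Parp8, Ccne2 and Klhl5 (mean Pearson r 0.96, 0.956 and 0.946). Ssbp2 was most like Tctex1d1, Parp8 and Myb (0.972, 0.968 and 0.957), Nt5e like Cdkn2c, Hpgd and Bcor (0.957, 0.946 and 0.944) and C2cd4a like Lmo2, Gstm5 and Hpgd (0.965, 0.915 and 0.903). Cnksr3 and Pcp4l1 had weaker matches, Mira, Tatdn2 and Nol8 (0.871, 0.869 and 0.853) and Pcdh7, Dnajc10 and Serpina3g (0.869, 0.867 and 0.855). By Spearman's rho, Nol8 and Lmo2 alone stayed among the 3 nearest genes of their member.

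After Jak1 loss some of these genes were called in the direction of their member and others were not. Parp8, like Slc29a3 and Ssbp2, rose there from 103 to 145 CPM, and Tctex1d1, a dynein light chain family gene, from 2.58 to 4.82 CPM (edgeR adjusted p = 1.417e-11 and 0.0001321). Myb, the progenitor transcription factor, rose from 560.1 to 645 CPM (adjusted p = 1.985e-06). Cdkn2c, a cell cycle inhibitor, fell like Nt5e, from 85.2 to 25.8 CPM, and Hpgd, which inactivates prostaglandins, fell from 1088 to 681 CPM (adjusted p = 2.565e-22 and 1.698e-17). Lmo2, the nearest match of C2cd4a, was not called, as given above. Its small change of −0.071 still went with C2cd4a over the 6 Jak1 libraries (r = 0.985). Nol8, a match of Cnksr3, rose from 78.0 to 86.2 CPM (adjusted p = 0.009384, and 0.07251 without floxed replicate 3), while Cnksr3 was not called. Mira and Tatdn2, its closer matches, were not called either (log2 changes 0.068 and −0.002, edgeR adjusted p = 0.3791 and 0.9696). The directions are part of how the genes were chosen. Among the members, the correlation over the 6 Jak1 libraries was 0.913 for Slc29a3 and Ssbp2 and −0.978 for Ssbp2 and Nt5e. Those values too follow from the split between the groups.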

How the data were processed

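The authors deposited 4 expression tables and a table of gene lists. Whole-number read counts per gene were deposited for CALM-AF10 and for Jak1, whose table is named FPKM but holds counts. Log2 normalized values, by a transformation not given in the sources used here, were deposited for MLL-AF10, and FPKM values for MLL-AF9. Bowtie 0.12.2 and mm9 stand in the submitters' processing notes, with no role. Counter and annotation: not given in the sources used here. Gene lists, also by the authors, were read for membership alone.

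Each table was fitted on its own 6 libraries, with Benjamini-Hochberg adjustment over all genes tested (call under 0.05). Counts went to edgeR 4.0.16 (R 4.3.3; filterByExpr, TMM, quasi-likelihood test), with SE taken as the log2 change over the square root of F and 95% intervals from it. CPM is TMM-scaled. Log2 values with a mean of at least 3.32 and log2(FPKM + 1) for means of at least 1 FPKM went to limma 3.58.1 (eBayes with trend). On the latter scale the change of low genes is understated. Scripts were tested on simulated data.

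The Jak1 columns named DMSO and Jak1_Del were taken as floxed and null. Date-like symbols (26 in the MLL-AF10 table, 27 in each of the other fusion tables) were tested but not named. The members, their partner lists and the markers were chosen with earlier results of these data known. Named genes are the members, up to 4 genes per partner list with the smallest adjusted p, 2 neighbours on each side, the 3 most alike genes per member, and Jak1, Hoxa9 and Meis1. Alternatives were DESeq2 1.42.0, other filters, median centring, a pseudocount of 0.1, a replicate block, and each library left out. In MLL-AF10 samples of the same number deviated together (r = 0.397, 0.199 and 0.194). The highest r with a sample of another number was −0.272, 0.175 and 0.17. The numbers may thus pair them, with a clear gap for number 1 alone. Any pairing comes from the data, not the labels, and the main fits ignore it.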

Additional observations from a re-analysis of the deposited data

Results flagged for a closer look

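Among the genes named above, 2 moved one way in every library of one fusion experiment and the opposite way in every library of another, and the difference between experiments was not tested. Of all genes tested, 15.5% in CALM-AF10, 17% in MLL-AF10 and 16.8% in MLL-AF9 had lower groups without overlap. The share of all genes with such opposite moves was not counted. Tlr7, a lysosomal RNA sensor, had log2 changes of −0.432 in CALM-AF10 (23.0, 28.0 and 25.3 CPM on; 15.2, 22.0 and 19.7 CPM off; edgeR adjusted p = 0.09014, but called with DESeq2, with no filter and with a replicate block, down to 0.007472), −0.133 in MLL-AF10 (limma adjusted p = 0.02711) and 0.581 in MLL-AF9 (limma adjusted p = 0.03981). Both limma calls were lost without single libraries, with adjusted p up to 0.2353 and 0.1527. P2rx1, an ATP-gated channel, changed by 0.074 in MLL-AF10 and by −0.431 in MLL-AF9, and neither passed the test (limma adjusted p = 0.1767 and 0.1164).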

How the results depend on the processing

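No member changed sign in a fusion table under any setting tried. In Jak1, the log2 changes without 1 library ran from 0.332 to 0.443 for Slc29a3, 0.497 to 0.571 for Ssbp2, −1.369 to −1.300 for Nt5e, −0.364 to −0.168 for C2cd4a, −1.377 to −0.552 for Pcp4l1 and −0.024 to 0.198 for Cnksr3, which reversed to −0.024 without null replicate 2 (adjusted p = 0.882). With DESeq2, 3 members were called in Jak1, Pcp4l1 (−0.859) and C2cd4a (−0.286) being lost. Without 1 library, 4 to 5 were called. The cause was not tested.

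Counts of calls over all genes moved more. With the replicate block, 1048 genes were called in CALM-AF10 (648 without) and 781 in MLL-AF9 (1281 without). In MLL-AF10, where the numbers may pair the samples, the blocked fit called 3102 genes, 29.4% of those tested, among them all 2089 called without it. The MLL-AF10 p-values given above come from the fit without the block unless named otherwise. Same-numbered samples correlated at 0.315, 0.163 and 0.018 in CALM-AF10, where the highest r with another number was −0.059, 0.054 and 0.176. Whether the numbers pair samples in CALM-AF10 is thus unclear. In MLL-AF9 and Jak1 same-numbered samples correlated near 0, so they share only a number there. The block changed the call of no member in Jak1. With no filter on low values, 604 were called in MLL-AF10 (2089 with it) and 592 in MLL-AF9. Without 1 library the counts ran from 146 to 944 in CALM-AF10, 1307 to 2396 in MLL-AF10, 648 to 1036 in MLL-AF9 and 5819 to 6145 in Jak1 (6467 with all). The log2 change with a pseudocount of 0.1 was −4.34 for C2cd4a in MLL-AF9. Depth limits C2cd4a in CALM-AF10 and Pcp4l1 in Jak1, both with 30 reads or fewer per library.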

Other observations

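The authors' deposited table lists 25 genes down without each of the 3 fusions, 5 of them members. Of the other 20, all tested after Jak1 loss, 8 fell and 3 rose, against 28.3% and 27.4% of all genes tested, with a median log2 change of −0.051. Those that fell were Cdkn2c, Hpgd, Serpina3g, Cd34, Afp, Hoxa5, Rhoj and Dnajc10, led by Cdkn2c at −1.72 (edgeR adjusted p = 2.565e-22). Hoxa5, a homeobox gene, fell from 38.3 to 32.3 CPM (log2 change −0.245, adjusted p = 0.003013), whereas Hoxa7 and Hoxa10 were not called (−0.05 and −0.05, adjusted p = 0.5579 and 0.1878). Those that rose were Tctex1d1, Cd28 and Tfrc, the transferrin receptor gene, which went from 843 to 964 CPM (0.19, adjusted p = 2.913e-05). These genes were taken from the deposited list, not from the rule for named genes.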
